A study of Mus musculus with 9 samples.

Results

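The expression of 10 genes of glucocorticoid signalling was followed in Leydig cells, the androgen-producing cells of the testis, taken as primary cells from wild-type mice. There were 3 control libraries, 3 TPhP (triphenyl phosphate) libraries and 3 DPhP (diphenyl phosphate) libraries. TPhP is an aryl phosphate ester used as a flame retardant and plasticiser, and DPhP, which has 1 phenyl ester group fewer, is a product of its hydrolysis. The 10 genes were chosen by symbol from 19058 genes in the table: the enzyme gene Hsd11b1, the receptor gene Nr3c1 and 8 genes known to respond to the receptor, namely Fkbp5, Tsc22d3, Zbtb16, Rasd1, Txnip, Nfkbia, Sgk1 and Lcn2. They were proposed from the values in TPhP and control libraries, so that contrast is given for them as a description with no test. The labels give no dose, no exposure time, no age of the animals and no statement that replicates are separate cultures. The p-values rest on the spread between replicate libraries, and that spread may be technical.

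Glucocorticoid hormone crosses the cell membrane and binds the receptor encoded by Nr3c1, which heat shock protein chaperones hold ready in the cytoplasm. The loaded receptor enters the nucleus, binds response elements in DNA and induces genes such as Fkbp5 and Tsc22d3, while it holds back many inflammatory genes. Hsd11b1 encodes the endoplasmic reticulum reductase that regenerates active hormone from its inert keto form. It is known for its abundance in Leydig cells, where glucocorticoids restrain testosterone synthesis.

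Expression was given in FPKM (fragments per kilobase of transcript, scaled to mapped fragments), with the depth of the libraries unknown. Summed over genes, control libraries held 421963 to 428928 FPKM, TPhP libraries 419107 to 422363 FPKM and DPhP libraries 398680 to 401930 FPKM. Libraries of 1 group correlated at 0.996 to 0.997 (Pearson r across genes, which are not independent replicates), and DPhP libraries correlated with control libraries at 0.953 to 0.956. Of 9 Leydig cell markers, Cyp17a1 and Hsd17b3 were under 1 FPKM in all 9 libraries. Summed, the 9 markers reached 1694 to 1810 FPKM in control libraries, 1789 to 1861 FPKM in TPhP libraries and 329 to 343 FPKM in DPhP libraries.

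Stretches before the transcription starts of these genes are shown for the motifs through which the receptor and factors that act with it are known to bind. RefSeq windows of 250 bases before to 50 after a start (GRCm38.p6) were found for 7 of the 10 genes, 14 windows in all. The full glucocorticoid response element, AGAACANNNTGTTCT, was in 1 of the 14 windows, at the Sgk1 start numbered 5 along the strand, and in 3 of 32851 windows genome-wide (0.00913%). The first base of that match lay 189 bases before the start. The NF-kB motif GGGNNTTNCC, searched on both strands like the others, was in the Nfkbia window and in 4.79% of all windows. The C/EBP motif TTNNGNAA was in the Hsd11b1 window at 2 places, 155 and 124 bases before the start, and in 40.7% of all windows. All 250 bases before that Hsd11b1 start lie in an exon of a GENCODE release M21 transcript that starts farther upstream, so they are not printed. All 250 before the Txnip start and 197 before the Lcn2 start also lie in an annotated exon. Capitals in the Sgk1 stretch mark the full element and, near its 5′ end, a run in which the E-box CACGTG (7.15% of windows) overlaps TGTTCT, the other strand of AGAACA, which is 1 arm of the full element (19% of windows). In the Nfkbia stretch capitals mark the NF-kB motif. These matches are letters in a window and say nothing of binding.
Sgk1, full response element and E-box with 1 arm, chr10:21993640-21993889, plus strand: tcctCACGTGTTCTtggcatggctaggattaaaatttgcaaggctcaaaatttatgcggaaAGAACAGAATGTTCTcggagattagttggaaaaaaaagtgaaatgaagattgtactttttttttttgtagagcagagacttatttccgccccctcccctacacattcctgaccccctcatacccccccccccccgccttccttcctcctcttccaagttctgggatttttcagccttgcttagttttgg
Nfkbia, NF-kB motif, chr12:55492648-55492897, minus strand: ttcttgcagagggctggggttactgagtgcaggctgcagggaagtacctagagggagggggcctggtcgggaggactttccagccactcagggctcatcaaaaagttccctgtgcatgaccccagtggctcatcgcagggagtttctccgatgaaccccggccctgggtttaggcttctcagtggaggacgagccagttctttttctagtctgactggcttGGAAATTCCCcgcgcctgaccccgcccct

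Among the other members, the Fkbp5 window held an E-box 169 bases before the start. The Lcn2 window held a C/EBP match 216 bases before the start, and the Tsc22d3 start numbered 3 had 1 arm of the response element 185 bases before it. The Txnip window held no match to the letters searched.

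Under TPhP, 9 of the 10 genes had a lower mean than in control, by unequal amounts, and Nr3c1 had a higher one. On the scale of log2(FPKM + 1) the differences ran from -0.66 for Hsd11b1 to -0.07 for Fkbp5, with 0.14 for Nr3c1. In 8 genes every TPhP library was below every control library, in Nr3c1 every TPhP library was above, and in Sgk1 the groups overlapped. Over the 12369 genes that reached 1 FPKM in 3 or more libraries, 12.2% lay below without overlap and 15.1% above. The median difference was -0.37 over the 10 genes and 0.006 over all genes tested. Nothing is read from these counts, since the genes were proposed with this contrast in view. In bulk samples, fewer cells of a type and less RNA per cell cannot be told apart.

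Under DPhP, the 8 target genes all fell and neither Hsd11b1 nor Nr3c1 passed the test. Lcn2, 1 of the 8, reached 1 FPKM in control and TPhP libraries alone and entered the test through them. The test was limma across all 12369 genes, with Benjamini-Hochberg adjustment and a call at an adjusted p under 0.05. Its control libraries are shared with the contrast in view when the genes were chosen. Of all genes tested, 71% were called under DPhP, 37.9% lower and 33.1% higher, so a call under DPhP was common. The median of the 8 targets was -1.09, beside -0.021 over all genes tested. TPhP was tested directly against DPhP as well, with 68.7% of all genes called, 30.9% lower and 37.8% higher in TPhP. The TPhP libraries of that comparison are also shared with the contrast in view when the genes were chosen, so its p-values are not independent of the choice. The 8 targets were called higher in TPhP than in DPhP. Hsd11b1, lower in TPhP, is given there with no test, since its TPhP values are those it was chosen on. The other genes were chosen on their TPhP values too, so their p-values in that comparison carry the same limit. With the doses unknown, these tests compare the groups as labelled and not the compounds at matched doses.

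**Figure D1:**
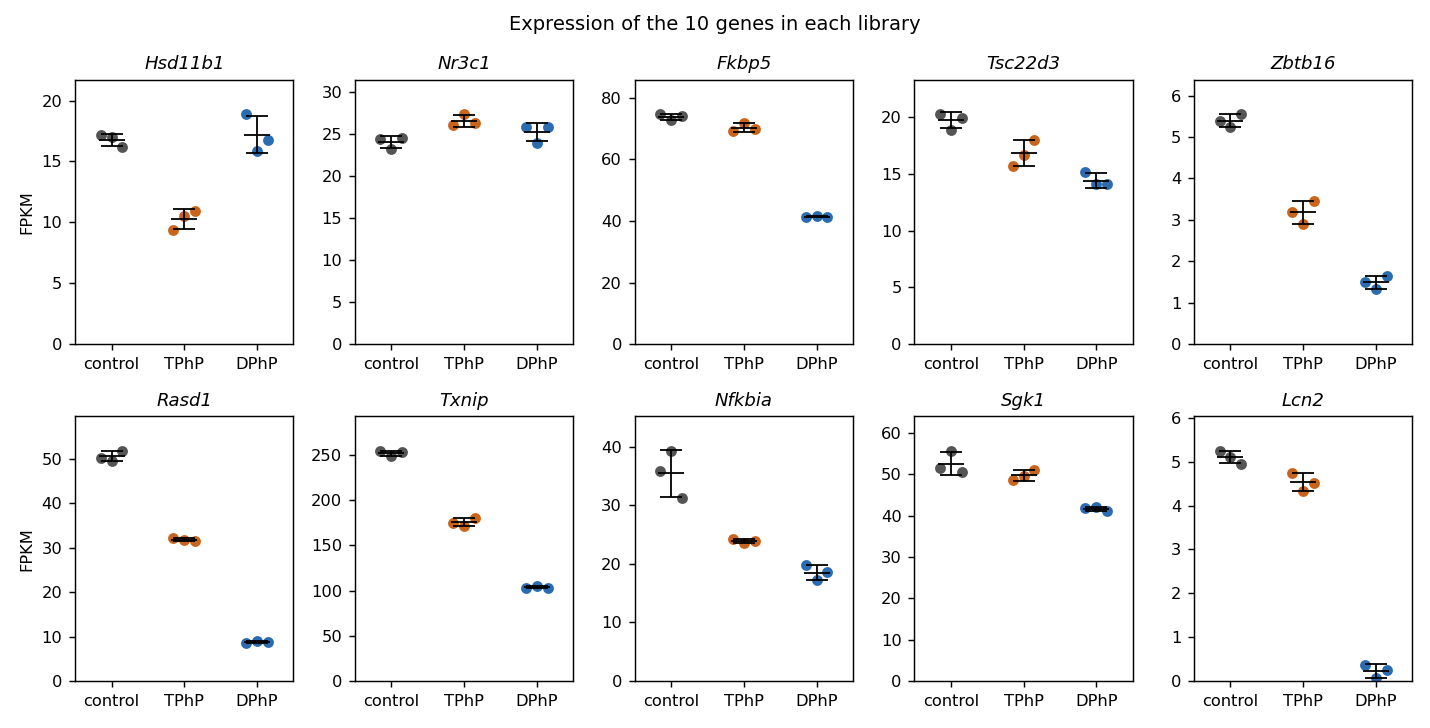
Expression in FPKM (y axis, each gene on its own axis from 0) of the 10 genes in each library, with 3 points per group and bars at the mean ± SD. The 8 target genes step down from control to TPhP to DPhP, with Sgk1 overlapping between control and TPhP, while Hsd11b1 is low in TPhP libraries alone, at 9.38 to 10.93 FPKM.

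The enzyme gene Hsd11b1 (chr1:193221640-193264045) measured 17.14, 16.98 and 16.22 FPKM in control, 9.38, 10.55 and 10.93 FPKM in TPhP, and 18.88, 15.9 and 16.8 FPKM in DPhP libraries. The TPhP libraries stood below all others, and the control and DPhP libraries overlapped. Mean levels were 16.8 ± 0.492 FPKM in control, 10.3 ± 0.808 FPKM in TPhP and 17.2 ± 1.53 FPKM in DPhP (SD, n = 3 each). The TPhP mean was 61.3% of the control mean, a log2 difference of -0.66 (SE 0.064), and the DPhP mean was 102% of it. For DPhP against control the difference was 0.03 (95% interval -0.11 to 0.17, adjusted p = 0.686), so a change of either sign within that interval was not detectable. The difference of TPhP from DPhP was -0.69 (SE 0.064, no test), with all 3 TPhP libraries below all 3 DPhP libraries. Of the 10 genes it was the 1 that was lower in TPhP than in DPhP.

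The receptor gene Nr3c1 (chr18:39410545-39519421) measured 24.47, 23.23 and 24.62 FPKM in control, 26.14, 27.4 and 26.4 FPKM in TPhP, and 25.9, 24.03 and 25.87 FPKM in DPhP libraries. The TPhP libraries were the highest, and the control and DPhP libraries overlapped. The TPhP mean was 111% of the control mean and the DPhP mean 105% of it. DPhP against control gave a log2 difference of 0.06 (interval -0.02 to 0.15, adjusted p = 0.15). That difference passed the test when libraries were rescaled to a common sum of FPKM (0.15, adjusted p = 0.00619), with median-of-ratios size factors (0.10, adjusted p = 0.0391) and without DPhP library 2 (0.10, adjusted p = 0.0355). TPhP against DPhP gave 0.07 (interval -0.01 to 0.16, adjusted p = 0.105).

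Fkbp5 (chr17:28398753-28486149) encodes a co-chaperone that lowers the receptor's affinity for hormone, a feedback on the pathway that induces it. It measured 74.61, 72.67 and 74.19 FPKM in control, 69.08, 71.88 and 69.7 FPKM in TPhP, and 41.37, 41.57 and 41.28 FPKM in DPhP libraries. The TPhP libraries lay just under the control libraries, and the DPhP libraries lay far below both, within a range of less than 1 FPKM. Relative to the control mean, TPhP libraries averaged 95.1% and DPhP libraries 56.1%. Under DPhP it fell, with a log2 difference of -0.82 (SE 0.026, adjusted p = 1.36e-10), against -0.07 (SE 0.026) for TPhP with no test. The direct difference of TPhP from DPhP was 0.75 (adjusted p = 3.14e-10).

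Tsc22d3 (chrX:140539528-140600522) encodes the glucocorticoid-induced leucine zipper protein, an anti-inflammatory mediator. Its levels were 20.23, 18.84 and 19.88 FPKM in control, 15.7, 16.66 and 17.98 FPKM in TPhP, and 15.18, 14.05 and 14.1 FPKM in DPhP libraries. The 3 groups stepped down in that order without overlap, with TPhP library 3 nearest to control. In TPhP libraries the mean was 85.4% of control (log2 difference -0.22, SE 0.051, no test). Under DPhP it fell to 73.5% of control (-0.42, SE 0.051, adjusted p = 1.5e-05). It was higher in TPhP than in DPhP by 0.20 (adjusted p = 0.00384).

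Zbtb16 (chr9:48651797-48836225) encodes a zinc finger repressor that glucocorticoids induce in many cells and that also marks undifferentiated spermatogonia. It measured 5.39, 5.23 and 5.55 FPKM in control, 3.18, 2.91 and 3.46 FPKM in TPhP, and 1.49, 1.34 and 1.64 FPKM in DPhP libraries. No library of 1 group overlapped another group. Mean levels were 59.1% of control in TPhP libraries (log2 difference -0.61, SE 0.066, no test) and 27.6% in DPhP libraries (-1.36, SE 0.066, adjusted p = 5.49e-09). TPhP against DPhP gave 0.75 (adjusted p = 1.01e-06). Summed, 12 germ cell markers reached 28.4 to 34.5 FPKM in control libraries, 26.0 to 31.4 FPKM in TPhP libraries and 11.1 to 11.4 FPKM in DPhP libraries, with 4 markers under 1 FPKM in all libraries. The spermatogonial markers Gfra1 and Sall4 averaged 0.183 ± 0.0551 and 0.0933 ± 0.0404 FPKM in control (SD, n = 3), near 0. Under TPhP limma called none of the 5 germ cell markers that reached 1 FPKM in both groups, and over all 7 tested 5 were lower at an unadjusted p under 0.05. The share of all genes at that unadjusted threshold was not taken. Ddx4 (1.28 ± 0.304 FPKM in control, 0.68 ± 0.04 FPKM in TPhP) reached 1 FPKM in control libraries alone. Under DPhP 3 markers reached it in both groups. Of these Uchl1 rose (1.81 ± 0.278 to 4.61 ± 0.177 FPKM) and Kit fell (12.2 ± 0.269 to 2.42 ± 0.0833 FPKM). Id4 was higher too (0.847 ± 0.0473 to 1.32 ± 0.125 FPKM) but reached 1 FPKM in DPhP libraries alone. Kit and Prm1 (8.77 ± 3.06 FPKM in control, 0.0933 ± 0.162 FPKM in DPhP) weighed most in the fall of the sum. The part of germ cells in the Zbtb16 values was not tested.

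Rasd1 (chr11:59963181-59964944) encodes a small Ras-like GTPase found as a dexamethasone-induced transcript. It measured 50.28, 49.65 and 51.83 FPKM in control, 32.12, 31.84 and 31.42 FPKM in TPhP, and 8.6, 8.89 and 8.8 FPKM in DPhP libraries. The groups were wide apart next to the spread within each. TPhP libraries averaged 62.8% of control (log2 difference -0.65, SE 0.03, no test). DPhP libraries averaged 17.3% of control (-2.40, SE 0.03, adjusted p = 1.29e-13), the largest of the 10 differences with the pseudocount of 1. TPhP exceeded DPhP by 1.75 (adjusted p = 1.32e-12).

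Txnip (chr3:96557957-96561857) encodes a thioredoxin-binding arrestin that limits glucose uptake and answers both to glucocorticoid and, through the MondoA and ChREBP factors, to glucose. It had the highest level of the 10 genes, at 254.56, 248.93 and 253.15 FPKM in control, 174.63, 171.63 and 180.5 FPKM in TPhP, and 102.82, 104.99 and 102.75 FPKM in DPhP libraries. The groups again stepped down without overlap. The TPhP mean was 69.6% of control (log2 difference -0.52, SE 0.026, no test) and the DPhP mean 41.0% (-1.28, SE 0.026, adjusted p = 4.32e-12). TPhP against DPhP gave 0.76 (adjusted p = 2.78e-10). Of the 3123 exon bases of Txnip in GENCODE release M21, 606 (19.4%) lie under the antisense gene Gm15441, which was not analysed here. The labels do not say that strand was kept, so reads from that stretch cannot be assigned to 1 of the pair. The exons of the other 9 genes overlap no annotated gene.

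Nfkbia (chr12:55489409-55492647) encodes an inhibitor that keeps NF-kB in the cytoplasm, and both glucocorticoid and NF-kB itself induce it; its promoter stretch with the NF-kB motif is printed above. It measured 35.89, 39.31 and 31.29 FPKM in control, 24.32, 23.58 and 23.92 FPKM in TPhP, and 19.84, 17.19 and 18.58 FPKM in DPhP libraries. Control libraries were the most spread, with no overlap between groups. TPhP libraries averaged 67.4% of control (log2 difference -0.54, SE 0.07, no test), and the DPhP mean was 52.2% (-0.90, SE 0.07, adjusted p = 3.67e-07). The difference of TPhP from DPhP was 0.35 (adjusted p = 0.000816).

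Sgk1 (chr10:21882184-21999903) encodes the serum and glucocorticoid regulated kinase, which acts on ion transport and cell survival, and its window is the 1 with the full response element. It measured 51.59, 55.69 and 50.51 FPKM in control, 48.58, 49.68 and 51.16 FPKM in TPhP, and 41.78, 42.17 and 41.21 FPKM in DPhP libraries. TPhP library 3 lay above control library 3, and the DPhP libraries lay below both groups. The TPhP mean was 94.7% of control (log2 difference -0.08, SE 0.037, no test). Under DPhP it fell to 79.3% of control (-0.33, SE 0.037, adjusted p = 8.66e-06), the smallest of the 8 called differences. TPhP against DPhP gave 0.25 (adjusted p = 8.4e-05).

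Lcn2 (chr2:32384637-32387739) encodes lipocalin-2, a secreted protein that binds iron-carrying siderophores and is induced in inflammation. It measured 5.25, 5.11 and 4.96 FPKM in control, 4.75, 4.34 and 4.52 FPKM in TPhP, and 0.37, 0.06 and 0.25 FPKM in DPhP libraries. The TPhP libraries lay just under control, and all DPhP libraries were under 1 FPKM. Lcn2 therefore passed the filter on low values through its control and TPhP libraries alone. At 88.8% of control, the TPhP mean gave a log2 difference of -0.14 (SE 0.084, no test), and the DPhP mean was 4.44% of control (-2.32, SE 0.084, adjusted p = 4.75e-10). TPhP exceeded DPhP by 2.18 (adjusted p = 8.3e-10). The pseudocount of 1 understates the change of so low a gene, and with 0.1 the DPhP difference was -4.13. Neutrophils are rich in lipocalin-2, and 8 neutrophil markers summed to 6.84 to 7.67 FPKM in control libraries, 6.14 to 10.6 FPKM in TPhP libraries and 3.23 to 3.78 FPKM in DPhP libraries, with 4 markers under 1 FPKM in all libraries. Their part in the Lcn2 values was not tested.

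**Figure D2:**
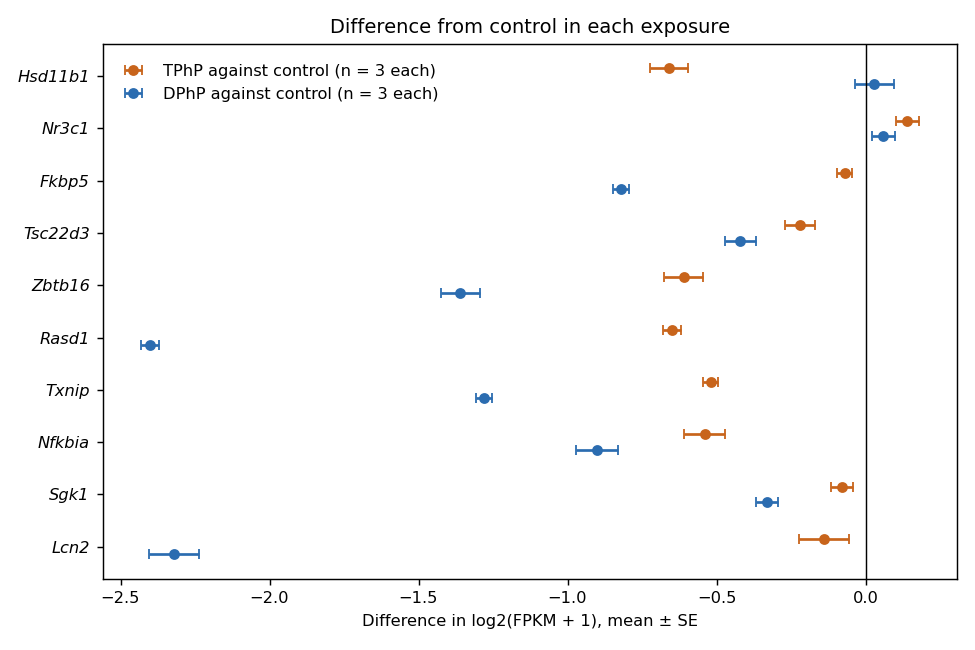
Difference from control in log2(FPKM + 1) (x axis, mean ± SE, n = 3 libraries each) for the 10 genes under TPhP and DPhP, which share the control libraries. Under DPhP, Rasd1 (-2.40) and Lcn2 (-2.32) lie farthest to the left and Hsd11b1 (0.03) near 0; under TPhP, Hsd11b1 (-0.66) and Rasd1 (-0.65) lie farthest.

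The order of the levels in FPKM, a measure per length, differed between the groups. In control, Txnip was highest (252 ± 2.93 FPKM), followed by Fkbp5 (73.8 ± 1.02), Sgk1 (52.6 ± 2.73), Rasd1 (50.6 ± 1.12), Nfkbia (35.5 ± 4.02), Nr3c1, Tsc22d3, Hsd11b1, Zbtb16 and Lcn2 (SD, n = 3 each). Libraries of Sgk1 and Rasd1 overlapped in this order, as did those of Zbtb16 and Lcn2. In DPhP libraries Rasd1 stood eighth, at 8.76 ± 0.148 FPKM. There Fkbp5 (41.4 ± 0.148) overlapped Sgk1 (41.7 ± 0.483), and Hsd11b1 overlapped Nfkbia (18.5 ± 1.33). In TPhP libraries Nr3c1 (26.6 ± 0.665) stood above Nfkbia (23.9 ± 0.37), with no overlap.

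The falls under DPhP went with a wide shift in cell type markers. Summed, 6 peritubular myoid markers reached 599 to 668 FPKM in control libraries, 589 to 624 FPKM in TPhP libraries and 1553 to 1613 FPKM in DPhP libraries. Summed FPKM of 6 stromal fibroblast markers was 2162 to 2181, 2017 to 2048 and 4133 to 4204 in the same order, and that of 10 macrophage markers 1317 to 1335, 1261 to 1276 and 1723 to 1839. The 6 stromal markers rose under DPhP, as did the 5 myoid markers that reached 1 FPKM in both groups; Des (0.6 ± 0.0656 FPKM in control, 1.42 ± 0.186 FPKM in DPhP) reached it in DPhP libraries alone. Of 10 macrophage markers 6 rose and 2 fell, Csf1r (-0.43, adjusted p = 1.32e-07) and Ptprc (-0.50, adjusted p = 1.05e-06), and Lyz2 (1063 ± 16.2 to 1499 ± 67.1 FPKM) made up most of their sum. Of 8 Sertoli cell markers (summed 31.9 to 34.1 FPKM in control, 70.3 to 74.3 FPKM in DPhP) 4 were tested and 4 rose. Of 5 Leydig markers that reached 1 FPKM in both groups, 4 fell. Of all genes tested 71% were called under DPhP, 37.9% lower and 33.1% higher. Those shares also stand beside the DPhP counts of the lists below. The part of the marker shift in the 8 falls was not tested.

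Genes linked to the activation, clearance or export of the hormone, among them cofactor suppliers and C/EBP transcription factors, were set beside Hsd11b1. This list and those below were chosen with earlier results of these data known. Their p-values may therefore not be independent of that choice. Of 11 such genes tested, Cebpd, a C/EBP transcription factor, was called lower under TPhP (21.5 ± 0.956 to 19.0 ± 0.975 FPKM, -0.17, adjusted p = 0.0433), and none was called higher by limma. At an unadjusted p under 0.05 there were 4 lower and 0 higher. The share of all genes at that unadjusted threshold was not taken, so such counts, here and for the lists below, have no background beside them. The share of all genes called under TPhP was 6.22%, 3.64% lower and 2.58% higher. The Cebpd call ended without any 1 of control libraries 1, 2 and 3, TPhP libraries 1 and 3, or DPhP libraries 1 and 3 (adjusted p 0.0562 to 0.149 over the 9 alternatives in which it ended). H6pd, whose product supplies NADPH to the Hsd11b1 reductase, measured 178 ± 4.5 FPKM in control and 172 ± 3.95 FPKM in TPhP libraries (-0.05, adjusted p = 0.344).

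Under DPhP 8 of these 11 genes fell and 2 rose, with a median of -0.36. H6pd fell to 139 ± 0.427 FPKM (-0.36, adjusted p = 2.49e-07), Cebpa from 30.7 ± 0.0586 to 17.1 ± 0.896 FPKM (-0.81, adjusted p = 3.32e-09), and Por, the reductase that feeds electrons to cytochromes P450, from 70.7 ± 2.18 to 43.8 ± 1.12 FPKM (-0.68, adjusted p = 9.58e-09). Abcb1b, an efflux pump for steroids and drugs, rose from 0.78 ± 0.0361 to 10.4 ± 0.127 FPKM (2.68, adjusted p = 8.26e-12). Abcb1b and its paralogue Abcb1a, the other rise, reached 1 FPKM in the 3 DPhP libraries alone, so both left the test when any 1 of these was left out, and the count of rises was then 0. Hsd11b1 itself was at 102% of control in these libraries.

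Receptor partners, the chaperones and coregulators that work with Nr3c1, gave 1 call of 22 tested under TPhP. The chaperone gene Dnaja1 was called lower (92.7 ± 1.63 to 86.3 ± 1.28 FPKM, -0.10, adjusted p = 0.0441) and none higher by limma. At an unadjusted p under 0.05 there were 3 lower and 3 higher. The Dnaja1 call ended with any control or TPhP library left out, or DPhP library 3 (adjusted p 0.0511 to 0.131 over 11 alternatives), and with a common sum of FPKM 2 other genes were called higher. Under DPhP 7 rose and 7 fell, while 71% of all genes tested were called. The cochaperone gene Bag1 fell (125 ± 0.808 to 87.9 ± 2.97 FPKM, -0.50, adjusted p = 1.5e-08) and Ptges3, the p23 cochaperone that stabilises the hormone-binding form, rose (69.8 ± 0.256 to 96.0 ± 3.15 FPKM, 0.45, adjusted p = 8.35e-08). The coactivator gene Ncoa1 rose (0.39, adjusted p = 3.65e-06) and Hspa8 fell (-0.23, adjusted p = 6.55e-06). With a common sum of FPKM the count of rises was 13.

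Genes known as glucocorticoid induced but outside the 8 targets gave a mixed picture under TPhP. Of all genes tested, 3.64% were called lower and 2.58% higher under TPhP, with a median difference of 0.006. Of 36 tested out of 43 listed, 10 fell, 3 rose and 23 did not pass, with a median of -0.07. The falls with the smallest p were those of Errfi1, a brake on the EGF receptor (97.3 ± 3.52 to 81.1 ± 3.21 FPKM, -0.26, adjusted p = 0.000983), and Tgm2, a transglutaminase (12.2 ± 0.78 to 9.15 ± 0.712 FPKM, -0.38, adjusted p = 0.00144). Next were Pdk4, which limits glucose oxidation (29.4 ± 0.537 to 22.6 ± 0.533 FPKM, -0.36, adjusted p = 0.00177), and the metabolic regulator Klf15 (13.5 ± 1.14 to 10.8 ± 0.325 FPKM, -0.29, adjusted p = 0.00739). These 4 calls held in all 16 alternatives. Other falls, named here for their stability alone, did not. The Glul call ended in 10 alternatives, the Per1 and Rgs2 calls in 7 each, the Angptl4 call in 3 and the Klf4 call in 2. The 3 rises, named after their values were seen, were Slc19a2 (0.20, adjusted p = 0.0143), Lpin1 (0.29, adjusted p = 0.0167) and Fbxo32 (0.16, adjusted p = 0.0414). The Fbxo32 call ended in 11 of 16 alternatives, among them each control or TPhP library left out and DPhP library 1 or 3 left out (adjusted p 0.0525 to 0.125). The Lpin1 call ended without control library 1 or 2 or TPhP library 1 or 2 (0.0508 to 0.0628), and the Slc19a2 call without TPhP library 2 (0.0639). The count of falls was 6 without control library 2 and 6 without TPhP library 2. The count of rises was 1 without control library 1, control library 2 or TPhP library 1, 0 without TPhP library 2 and 6 with a common sum of FPKM.

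Under DPhP 37.9% of all genes tested were called lower and 33.1% higher, with a median difference of -0.021. Of the 36 genes 24 fell, 8 rose and 4 did not pass, with a median of -0.27. Trim63, 1 of the falls, reached 1 FPKM in TPhP libraries alone. The metallothionein gene Mt1 fell from 768 ± 26.6 to 216 ± 1.35 FPKM (-1.83, adjusted p = 1.53e-12) and the glutamine synthetase gene Glul from 411 ± 5.92 to 180 ± 4.24 FPKM (-1.19, adjusted p = 6.8e-12). Angptl4, an inhibitor of lipoprotein lipase, fell from 80.3 ± 3.9 to 24.7 ± 0.588 FPKM (-1.66, adjusted p = 1.34e-11) and Pdk4 to 8.37 ± 0.835 FPKM (-1.70, adjusted p = 1.37e-10). Tgm2 went the other way, rising to 30.6 ± 0.24 FPKM (1.26, adjusted p = 2.04e-09). TPhP and DPhP differed in it by -1.64 (adjusted p = 2.26e-10), and 21 of the 36 genes were higher and 10 lower in TPhP than in DPhP.

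**Figure D3:**
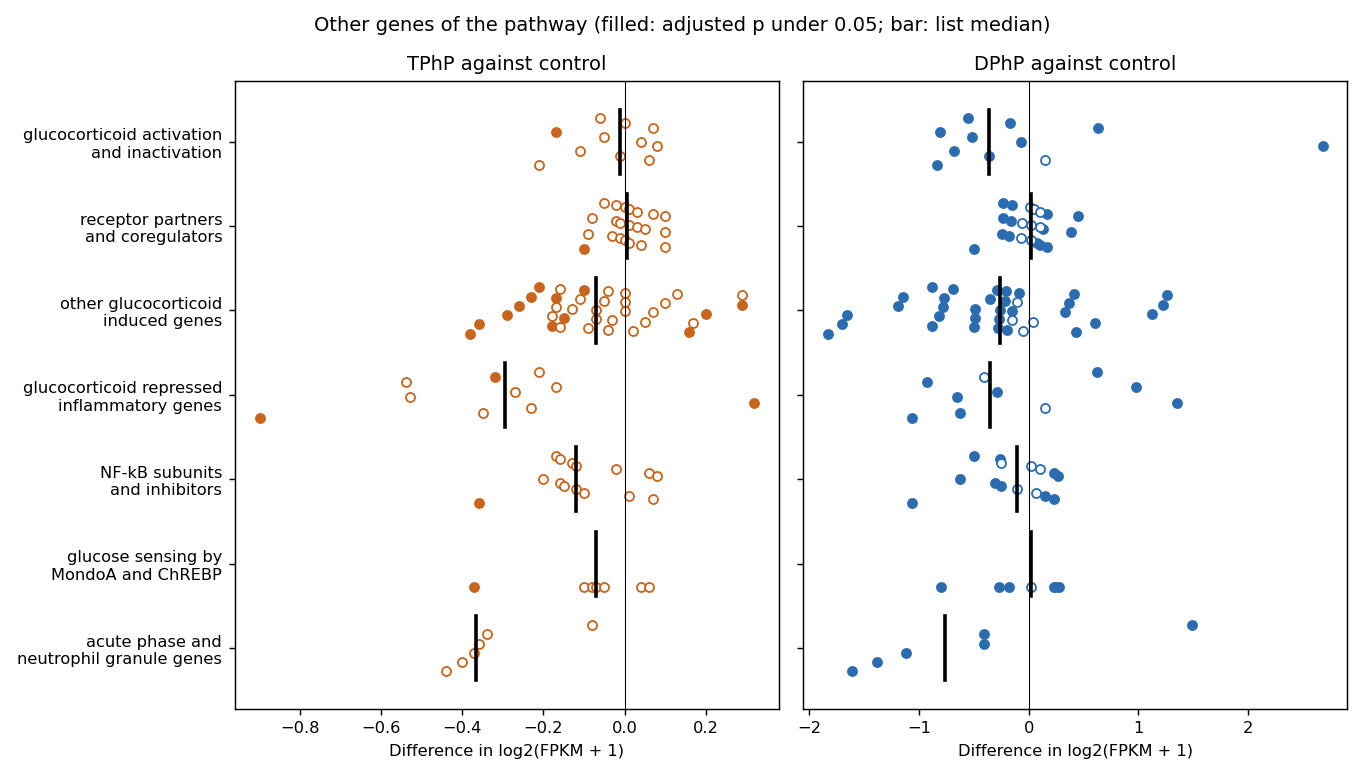
Differences from control in log2(FPKM + 1) (x axes, with unequal ranges) for genes of 7 lists outside the 10 genes, under TPhP (left) and DPhP (right), where each circle is a gene, filled if its adjusted p was under 0.05, and the bar is the list's median. Under TPhP most circles are open, with 10 of 36 other induced genes filled on the left of 0 and 3 on the right; under DPhP most are filled, on both sides of 0.

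Of inflammatory genes that glucocorticoid is known to repress, 10 were tested out of 20 listed. Under TPhP 1 rose and 2 fell, or 1 and 1 of the 9 that reached 1 FPKM in both groups. The difference was below 0 in 9 of the 10, with a median of -0.30 beside 0.006 over all genes tested, with 5 lower and 1 higher at an unadjusted p under 0.05. Vcam1, an adhesion molecule, rose (59.7 ± 4.56 to 74.4 ± 2.77 FPKM, 0.32, adjusted p = 0.00215). The alarmin gene Il33 fell (2.5 ± 0.0862 to 0.877 ± 0.0208 FPKM, -0.90, adjusted p = 1.3e-05), as did the cytokine gene Lif (2.43 ± 0.281 to 1.75 ± 0.14 FPKM, -0.32, adjusted p = 0.0212). The Lif call ended without control library 2 (adjusted p = 0.0727), TPhP library 1 (0.0647) or TPhP library 2 (0.0806). Il33 reached 1 FPKM in the 3 control libraries alone. It therefore entered the test through the group where it was high, and left it when any 1 of these libraries was left out. Under DPhP 5 fell and 3 rose, or 3 and 3 of the 8 that reached 1 FPKM in both groups. Vcam1 fell there (-1.06, adjusted p = 3.44e-09), and its direct difference of TPhP from DPhP was 1.37 (adjusted p = 3.65e-10). Il33 fell (-0.93, adjusted p = 1.42e-07), Mmp13 fell (-0.65, adjusted p = 1.9e-05) and Lif rose (0.98, adjusted p = 1.57e-07).

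NF-kB subunits and inhibitors other than Nfkbia gave 1 call of 15 under TPhP. Bcl3, a nuclear partner of NF-kB, fell from 9.84 ± 0.762 to 7.43 ± 0.44 FPKM (-0.36, adjusted p = 0.00552), and without control library 1 there were 2 falls. None was called higher by limma. At an unadjusted p under 0.05 there were 6 lower and 1 higher. Under DPhP 6 fell and 4 rose, led by falls of Tnip1, a partner of the inhibitor A20, from 56.9 ± 4.27 to 26.8 ± 1.36 FPKM (-1.06, adjusted p = 5e-09) and of Tnfaip3, which encodes A20 (-0.63, adjusted p = 3.83e-05). The subunit gene Rela (-0.31, adjusted p = 0.000258) and the kinase gene Ikbkb (-0.25, adjusted p = 0.000261) fell less. Nfkbia, at -0.90, lay between Tnip1 and Tnfaip3.

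Among genes of glucose sensing, set beside Txnip, its paralogue Arrdc4 was the 1 call of 7 under TPhP, and it fell from 9.65 ± 0.275 to 7.27 ± 0.917 FPKM (-0.37, adjusted p = 0.00687). None was called higher by limma. At an unadjusted p under 0.05 there were 3 lower and 0 higher. Under DPhP, where Txnip fell by a log2 difference of -1.28, Arrdc4 rose to 11.6 ± 0.419 FPKM (0.24, adjusted p = 0.00636). The direct difference of TPhP from DPhP in Arrdc4 was -0.62 (adjusted p = 6.53e-06), against 0.76 in Txnip. Mlxipl, which encodes ChREBP, fell under DPhP (2.77 ± 0.0611 to 1.18 ± 0.266 FPKM, -0.80, adjusted p = 2.6e-05), Mlxip, which encodes MondoA, fell (-0.27, adjusted p = 0.000119), and the glucose transporter gene Slc2a1 rose (0.28, adjusted p = 0.000124).

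Acute phase and neutrophil granule genes, which share the inflammatory setting of Lcn2, gave no limma call among 6 tested of 10 listed under TPhP, with 4 lower at an unadjusted p under 0.05 and a median of -0.37. Without control library 1 or control library 3 there was 1 fall. Under DPhP 5 of 6 fell and 1 rose, and without control library 2 there were 3 falls. The haptoglobin gene Hp fell from 7.83 ± 1.52 to 1.91 ± 0.673 FPKM (-1.61, adjusted p = 1.71e-06), the complement gene C3 from 35.1 ± 7.97 to 15.6 ± 3.44 FPKM (-1.12, adjusted p = 3.61e-05) and Slc22a17, a receptor for lipocalin-2, from 8.18 ± 0.384 to 5.94 ± 0.762 FPKM (-0.41, adjusted p = 0.000273). Steap4, a metalloreductase, rose from 2.57 ± 0.608 to 8.95 ± 0.701 FPKM (1.49, adjusted p = 9.94e-08).

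Genes whose profile over the 9 libraries was most like that of Hsd11b1 were sought by the Pearson correlation of log2(FPKM + 1) among 9186 other genes with a mean of at least 5 FPKM. The first 5 were Scara5 (0.985), Ogn (0.965), Fam20c (0.962), Isyna1 (0.958) and Rars (0.954), given as a description over 9 libraries in 3 groups. Scara5, a ferritin receptor, was nearest in size as well, at 5.95 ± 0.156 FPKM in control, 3.77 ± 0.124 FPKM in TPhP and 5.95 ± 0.252 FPKM in DPhP libraries (SD, n = 3 each). The matrix proteoglycan gene Ogn changed less, from 201 ± 2.55 FPKM in control to 168 ± 2.54 FPKM in TPhP and 211 ± 3.29 FPKM in DPhP libraries. Of the other glucocorticoid genes 7 had that mean, and none was among these 5; Zbtb16 and Lcn2 were below it and not searched. Over the 9 libraries Txnip correlated with Hsd11b1 at -0.141, Rasd1 at -0.287, Nfkbia at 0.105, Fkbp5 at -0.449 and Nr3c1 at -0.634. Tsc22d3 stood at 0.042 and Sgk1 at -0.287. Over the 6 control and TPhP libraries alone, the contrast on which the genes were proposed, the first 5 stood at 0.983, 0.971, 0.940, 0.884 and -0.877. There Tsc22d3 stood at 0.926 and Sgk1 at 0.702.

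**Figure D4:**
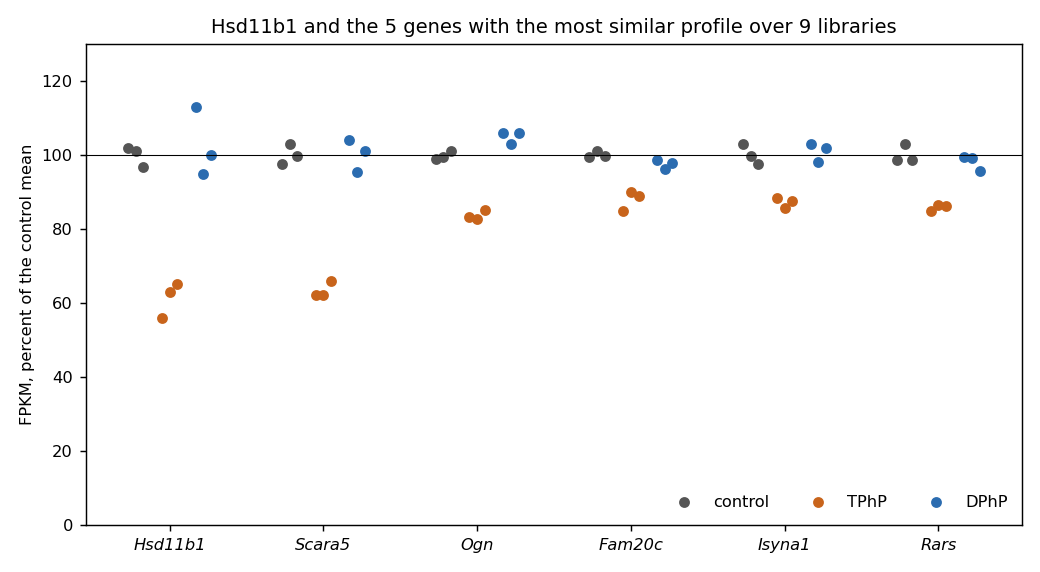
FPKM of Hsd11b1 and of the 5 genes most like it, as a percent of each gene's control mean (y axis from 0), with 1 point per library and 3 libraries per group. The TPhP points of all 6 genes lie below the control and DPhP points, at 55.9% to 65.1% for Hsd11b1 and 62.1% to 65.8% for Scara5.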

How the data were processed

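Expression was measured by RNA sequencing in 9 libraries of mouse primary Leydig cells, 3 per group. Per the labels, RNA was extracted with Trizol and mRNA enriched on oligo(dT) beads. The authors deposited FPKM values for 19058 genes. The build was GRCm38.p6, per the submitters' processing notes; the aligner, the counting tool and the read depth are not stated in what was used here. Both the 10 genes and the lists set beside them were chosen with earlier results of these data known.

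Values were analysed as log2(FPKM + 1), with 12369 genes at 1 FPKM or more in at least 3 libraries. All 9 libraries entered 1 fit in limma 3.58.1 (R 4.3.3, variance trend, 6 residual degrees of freedom), two-sided, with Benjamini-Hochberg adjustment over all tested genes; the procedure was tested on simulated data. From each list the genes named are up to 4 called genes with the smallest p in each comparison, besides those named for another reason in the text. The 16 alternatives covered the pseudocount, the filter, scaling, the libraries fitted, a replicate block and each library left out. Promoter windows are RefSeq's (GRCm38.p6), and exon overlap was taken from GENCODE release M21 (GRCm38).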

Additional observations from a re-analysis of the deposited data

How the results depend on the processing

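Main counts of genes called were 769 for TPhP against control, 8782 for DPhP against control and 8495 for TPhP against DPhP. With each library left out in turn they ran from 414 to 766, 8065 to 8735 and 7830 to 8459. The first was 498 without control library 1, 436 without control library 2, 434 without TPhP library 1 and 414 without TPhP library 2; the cause was not tested. Rescaling to a common sum of FPKM turned the split of higher to lower calls from 319 and 450 to 429 and 358, from 4089 and 4693 to 5216 and 3728, and from 4672 and 3823 to 3800 and 4770. Replicate numbers did not pair the libraries (correlations of same-numbered deviations -0.121 to 0.104), and a replicate block gave 663, 8711 and 8458 calls. Lcn2 and Zbtb16 have 15 alternatives, as a mean of at least 5 FPKM left them out. Of 158 values for the 10 genes under DPhP, 155 kept their side of the threshold and 3, all Nr3c1, newly passed it. Direction under DPhP was kept by every gene but Hsd11b1, which ranged from -0.04 to 0.11 (adjusted p 0.134 to 0.935). For TPhP against DPhP all 158 kept their direction, and the 9 genes tested there their side of the threshold. For TPhP against control Zbtb16 was -0.74 with a pseudocount of 0.1, and the other 157 values moved by less than the spread between libraries. Counting error could not be given, as depth is unknown.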

Other observations

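Over the 6 control and TPhP libraries, without DPhP, the genes whose profile was most like that of Hsd11b1 were Ppp1r12b, a regulator of myosin phosphatase (Pearson r 0.998), the secreted protease gene Htra1 (0.994), the histone methyltransferase gene Ehmt2 (0.993), Zfp970 (0.992) and Lmcd1 (0.991). None of these 5 is among the 5 most like it over all 9 libraries. Their DPhP levels lay under their control levels, at 318 ± 1.5 FPKM in DPhP and 761 ± 6.28 FPKM in control for Htra1 and 23.9 ± 1.45 FPKM against 51.6 ± 1.82 FPKM for Lmcd1 (SD, n = 3 each). These are descriptions over 6 libraries in 2 groups.

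The pattern of Hsd11b1 was taken as called lower by limma in TPhP than in both other groups, with DPhP against control not called. It was found in 55 of 12369 genes (0.445%), Hsd11b1 included. The place of Hsd11b1 there is no test, since it was chosen on its TPhP values. This count uses the contrast on which the 10 genes were proposed and is a description.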
